A study of Homo sapiens with 9 samples.

Results

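The GADD45 family holds 3 small genes, GADD45A, GADD45B and GADD45G, and all 3 were found by symbol among the 26475 genes of the deposited table. The members were taken by name, with earlier results of these data known. They were followed in A375, a human melanoma cell line with mutant BRAF, grown in DMEM with serum. Over 24 h the cells were exposed to the vehicle DMSO or to TP-472 at 5 µM or at 10 µM, and 3 libraries of each group were sequenced. TP-472 blocks the bromodomains of BRD9 and BRD7. All groups share this cell line and this exposure time. The design text calls the libraries biological replicates without saying which culture each came from, so p-values measure the spread between these libraries.

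GADD45 proteins are small acidic proteins without known enzyme activity that are made on stress. They bind other proteins, among them the mitotic kinase CDK1 with its cyclin, the clamp protein PCNA, the cell cycle inhibitor p21 (CDKN1A) and the kinase MAP3K4, which feeds the p38 and JNK stress kinases. GADD45A is a classic DNA damage gene and is also induced through ATF4. GADD45B is an early response gene to NF-kB and TGF-beta signals, and GADD45G is best known for its induction by cytokines and its silencing in many tumors.

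The deposited values are expected counts from RSEM, which totalled 42483091 to 51298130 per library. They are given here as CPM, the count scaled to the TMM-normalized library size. The melanoma marker SOX10 was at 363 to 426 CPM in the 9 libraries and MITF at 23.3 to 35.9 CPM, while the pigment genes were low, with PMEL at most 2.87 CPM, MLANA at most 0.346 CPM and TYR without a count. Among markers of other cell types, the leukocyte marker PTPRC did not exceed 0.537 CPM. CDH5 reached at most 0.978 CPM, the keratin gene KRT5 1.76 CPM and PECAM1 2.12 CPM. The keratin gene KRT14 reached 8.76 CPM and was above PMEL in every library, so these markers were not all absent. Between 8.20% and 19.9% of the counts in a library fell on ribosomal RNA genes, and both extremes were 10 µM libraries. The library of 10 µM replicate 1 stood apart, since its median gene lay 0.364 log2 units from the mean of the other 2 libraries of its group, against 0.202 and 0.213 for those and at most 0.0937 in DMSO and 5 µM libraries. Reported calls that change without it are given beside the gene. In bulk RNA, less of a transcript per cell and fewer cells that carry it cannot be told apart.

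GADD45A lies at chr1:67685061-67688338, GADD45B at chr19:2476122-2478259 and GADD45G at chr9:89605013-89606555 (GRCh38, GENCODE release 29), all on the plus strand. No other annotated gene overlaps any of them. The coding sequences were 68.2% identical between GADD45A and GADD45B, 71.2% between GADD45A and GADD45G and 69.8% between GADD45B and GADD45G, but the longest run of bases that any pair of transcripts shared was 18. All 9 values of each gene lay within 1e-06 of a whole number, while values farther from one made up 10.6% to 13.8% of each library.

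The RefSeq promoters of GADD45B and GADD45G are shown, the members for which the promoter table used here gave a sequence. Each sequence runs 5′ to 3′ over the 250 bases before the start of the gene on GRCh38.p14, plus strand, with the motifs found in capitals.
GADD45B, chr19:2475877-2476126: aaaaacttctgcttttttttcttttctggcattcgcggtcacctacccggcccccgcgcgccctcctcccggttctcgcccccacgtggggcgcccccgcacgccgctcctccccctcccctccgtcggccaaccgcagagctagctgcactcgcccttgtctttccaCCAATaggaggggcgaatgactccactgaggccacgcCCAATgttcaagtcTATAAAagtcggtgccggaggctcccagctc
GADD45G, chr9:89604762-89605011: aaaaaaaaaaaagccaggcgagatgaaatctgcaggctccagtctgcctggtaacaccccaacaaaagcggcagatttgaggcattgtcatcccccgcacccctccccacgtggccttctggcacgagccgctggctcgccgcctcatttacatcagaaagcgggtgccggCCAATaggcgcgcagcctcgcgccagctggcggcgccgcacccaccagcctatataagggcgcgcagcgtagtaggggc
The motifs searched on both strands were the core promoter motif TATAAA, the NF-Y motif CCAAT, the Sp1 motif GGGCGG, the octamer ATTTGCAT, the cyclic AMP response element TGACGTCA and the core TTGCATCA of the amino acid response element. The GADD45B window held 1 core promoter motif, from 31 to 26 bases before the start, and 2 NF-Y motifs, from 82 to 78 and from 45 to 41 bases before it. The GADD45G window held 1 NF-Y motif, from 79 to 75 bases before the start. Motifs were matched as exact strings, so the stretch tatataag near the end of the GADD45G window was not counted as TATAAA. This search therefore cannot show that GADD45G lacks a core promoter motif. Of all 35116 promoter windows of this length, 32.0% held the NF-Y motif and 10.7% the core promoter motif. The Sp1 motif was in 42.6% of windows, the cyclic AMP response element in 1.65%, the octamer in 1.63% and the amino acid response element core in 0.772%, and neither GADD45 window held any of these 4.

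In vehicle-treated cells GADD45A was the most abundant member, GADD45B was intermediate and GADD45G was at the limit of detection. Divided by the union of annotated exons, the DMSO level of GADD45A was 16.1 ± 1.29 CPM per kilobase (SD, n = 3), against 4.38 ± 0.165 for GADD45B (SD, n = 3). This length was 2069 bases for GADD45A and 2138 for GADD45B, its whole gene. The transcripts with the longest coding sequence had 1496 and 765 bases. By those lengths GADD45B would lie nearer to GADD45A, so the gap, the percentiles and the family shares below depend on the length used. The median of the 15274 tested genes with a known length was 3.82 CPM per kilobase in DMSO. In DMSO GADD45A stood at percentile 82.4 of these genes and GADD45B at percentile 53.1. GADD45G stood at percentile 0.543, with 2 counts in DMSO replicate 1 and 0 in replicates 2 and 3. A count of 0 allows up to 3 counts, which is 0.0617 and 0.0709 CPM in those 2 libraries, so expression below that level was not detectable at this depth. At 10 µM the percentiles were 98.3 for GADD45A, 81.0 for GADD45B and 20.1 for GADD45G. The order of the levels, GADD45A over GADD45B over GADD45G, held in every library, and in no group did the ranges of the members overlap.

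On average all 3 genes were higher with each dose. For each of them every 10 µM library lay above every 5 µM library and every 5 µM library above every DMSO library. Of the 16417 tested genes 5.68% had this order. For GADD45G the order rested on 4 counts in 5 µM replicate 3 against 2 in DMSO replicate 1. GADD45G also passed the filter on low counts through its 10 µM libraries, so its order was partly built in and gives no support. A gene was called where edgeR's quasi-likelihood test gave a Benjamini-Hochberg adjusted p under 0.05 over all tested genes and the fold change was at least 1.5.

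GADD45A, a gene of the DNA damage response, had the largest gain in transcripts. Its expression was 36.3, 32.2 and 31.3 CPM in the DMSO libraries, 100.3, 104.0 and 93.9 CPM at 5 µM and 283.5, 219.3 and 237.7 CPM at 10 µM. The 3 groups stood well apart, and 10 µM replicate 1 was the highest library. GADD45A rose at 5 µM by 1.58 ± 0.11 on the log2 scale (± standard error, here and for all fitted changes; adjusted p = 3.02e-05, edgeR). At 5 µM 2.14% of all genes were called up, and GADD45A was the only called member of the 3. From 5 µM to 10 µM it rose again by 1.31 ± 0.11 (adjusted p = 0.000115), where 1.42% of genes were called up. The total change at 10 µM against DMSO was 2.89 ± 0.11 (adjusted p = 1.75e-07). Without 10 µM replicate 1 this total was 2.78, the lowest value with any library left out.

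GADD45B, an early response gene whose product binds the JNK-activating kinase MAP2K7, had most of its change in the upper step. Its expression was 9.62, 9.51 and 8.96 CPM in DMSO, 12.6, 13.1 and 10.7 CPM at 5 µM and 36.0, 30.0 and 27.2 CPM at 10 µM. The 5 µM libraries lay just above the DMSO range, while the lowest 10 µM library was at 27.2 CPM. At 5 µM it differed from DMSO by 0.37 ± 0.12 on the log2 scale (adjusted p = 0.0914, edgeR), which was not called. The adjusted p was 0.00614 without 10 µM replicate 1 and 0.00742 in a fit of the 2 groups alone, but the fold stayed under 1.5 in both. From 5 µM to 10 µM GADD45B rose by 1.36 ± 0.12 (adjusted p = 0.000234), close to the 1.31 of GADD45A in the same step. Its total change at 10 µM against DMSO was 1.73 ± 0.13 (adjusted p = 7.62e-06), and 1.61 without 10 µM replicate 1.

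GADD45G, which was close to 0 in DMSO, gave 9, 19 and 4 counts at 5 µM and 36, 26 and 28 counts at 10 µM. In CPM these were 0.197, 0.368 and 0.0821 at 5 µM and 0.744, 0.500 and 0.571 at 10 µM, so the gene stayed under 1 CPM in all libraries. The 5 µM libraries were spread widely and the lowest of them was near the limit that a count of 0 sets. Summed over libraries and corrected for library size, the 90 counts at 10 µM against 2 in DMSO were a ratio of 42.3, with an exact 95% interval of 11.4 to 355 that covers counting error only. The 32 counts at 5 µM gave a ratio of 15.4 against DMSO (3.93 to 133), and 10 µM against 5 µM gave 2.75 (1.82 to 4.25). In edgeR the rise was called at 10 µM (adjusted p = 0.00399) but not at 5 µM (adjusted p = 0.0544) or between the doses (adjusted p = 0.278). DESeq2 called it at 5 µM (adjusted p = 0.0202), as did edgeR without 10 µM replicate 1 (adjusted p = 0.0219). GADD45G passed the filter on low counts through its 10 µM libraries, so that a difference from DMSO was built into its being tested. At 10 µM against DMSO 8.57% of the tested genes were called up, and GADD45A and GADD45B, which passed the filter in all groups, were among them.

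**Figure D1:**
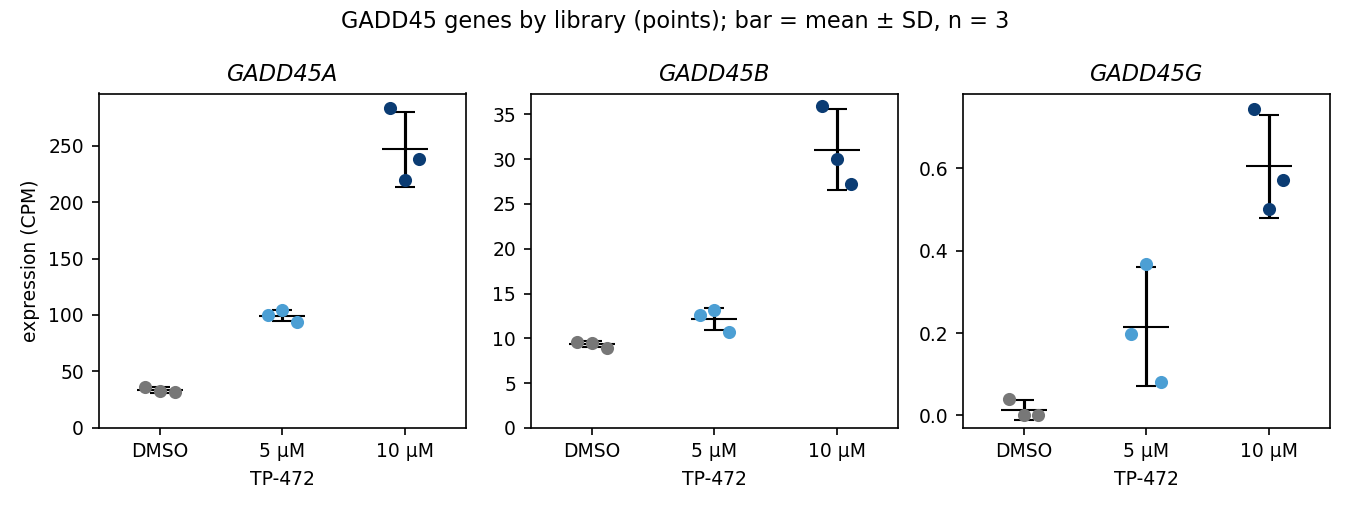
Expression of GADD45A, GADD45B and GADD45G in CPM (linear axes, 1 scale per panel) in each of the 9 libraries (points), with the mean and SD of the 3 libraries per group (bars). GADD45A climbs in both steps, from 33.3 to 99.4 and 246.9 CPM on average, GADD45B mostly in the upper step, from 9.36 to 12.1 and 31.1 CPM, and GADD45G stays under 1 CPM.

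The doses are evenly spaced, so the change from 5 µM to 10 µM was tested against that from DMSO to 5 µM in the same fit, with the adjusted p alone as the rule. For GADD45A the upper step minus the lower step was -0.27 ± 0.18 on the log2 scale (adjusted p = 0.745, edgeR), and for GADD45B it was 0.98 ± 0.22 (adjusted p = 0.111). Neither passed the test, at which 0.158% of genes were called with the larger upper step and 0.298% with the smaller one. This outcome changed with 10 µM replicate 1. Without this library the difference was -0.38 for GADD45A (adjusted p = 0.0317) and 0.86 for GADD45B (adjusted p = 0.00482), both called, and 3.11% and 5.05% of all genes were called with the larger and the smaller upper step. DESeq2 called the difference for GADD45B with all 9 libraries (1.00, adjusted p = 0.00689). For GADD45G the difference was -2.25 ± 1.49 (adjusted p = 0.738), too uncertain at this depth to give a direction.

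**Figure D2:**
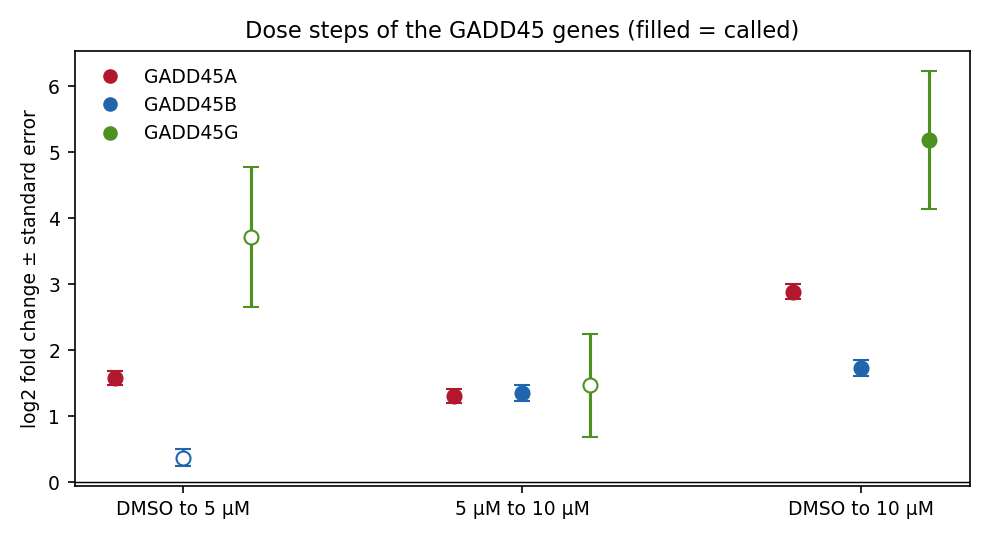
Log2 fold change with its standard error for each step and for the whole change, per gene, from edgeR (filled points were called, open points were not). GADD45A has steps of 1.58 and 1.31, GADD45B of 0.37 and 1.36, and the standard error of GADD45G is much wider, at 1.06 and 0.78.

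The makeup of the family also changed with treatment. The family as a whole was at 20.5 ± 1.43 CPM per kilobase in DMSO, 53.9 ± 3.15 at 5 µM and 134.3 ± 17.8 at 10 µM (SD, n = 3 each), a sum 2.63 and 6.56 times that of DMSO. GADD45A made up 79.5%, 77.8% and 78.3% of it in the DMSO libraries, 88.9%, 88.7% and 89.9% at 5 µM and 88.7%, 88.0% and 89.7% at 10 µM. Thus the share was higher in all 6 TP-472 libraries than in DMSO, whereas the 2 doses overlapped. GADD45B made up 21.4% ± 0.943 in DMSO, 10.5% ± 0.507 at 5 µM and 10.8% ± 0.872 at 10 µM (SD, n = 3 each). The share was lower in all 6 TP-472 libraries than in DMSO, although the CPM of GADD45B was higher in each of them. GADD45G never exceeded 0.491% of the family. An exact permutation test over all assignments of the 9 libraries to 3 groups of 3 gave p = 0.0214 for the shares of GADD45A and of GADD45B (adjusted p = 0.0286 over 4 such tests) and p = 0.0607 for GADD45G (adjusted p = 0.0607). The smallest p this design can give is 0.00357, and a pair of groups alone could not pass 0.05.

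Because GADD45G was so scarce, the ratio of GADD45A to GADD45B counts restates their shares and is not separate evidence. Neither the ratio nor the shares depend on library size. The log2 ratio was 1.92, 1.76 and 1.80 in DMSO, 3.00, 2.98 and 3.13 at 5 µM and 2.98, 2.87 and 3.13 at 10 µM. It was 1.21 higher at 5 µM than in DMSO on average, and 0.046 lower at 10 µM than at 5 µM, a difference smaller than the SD of 0.081 at 5 µM and 0.131 at 10 µM. The groups differed by the exact permutation test (p = 0.0179, adjusted p = 0.0286 over 4 tests). All DMSO libraries lay below all treated libraries, while the 2 doses overlapped.

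**Figure D3:**
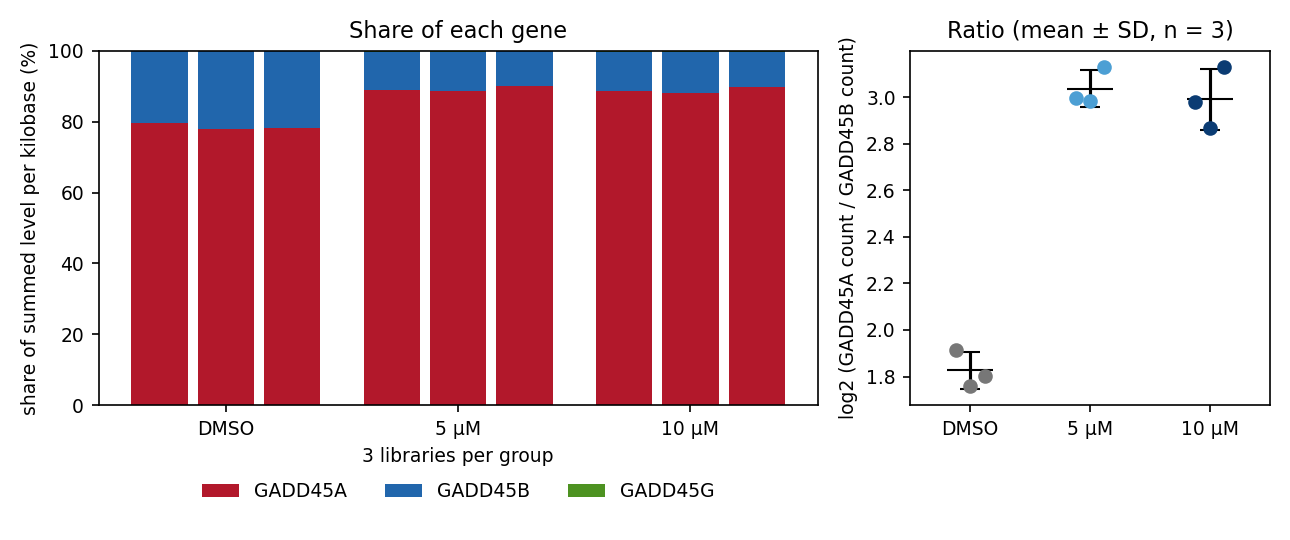
Left, share of each member in the summed family level per kilobase (%) in each library. Right, log2 ratio of GADD45A to GADD45B counts per library (points) with mean and SD of 3 libraries. The share of GADD45A goes from 78.5% in DMSO to 89.2% at 5 µM and 88.8% at 10 µM on average, and GADD45G is too scarce to be seen.

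A list of 47 genes known to regulate GADD45 genes, bind their products or act below them was then examined, and all 47 were tested. At 5 µM 4 of them were called up and 1 down, where 2.14% of all genes were called up and 2.72% down. At 10 µM 6 were called up and 7 down, where 8.57% of all genes were called up and 10.5% down. The median log2 fold change of the list was -0.02 at 5 µM and -0.05 at 10 µM, close to the 0.01 of all genes at either dose. From 5 µM to 10 µM 5 were called up and 1 down, where 1.42% of all genes were called up and 2.59% down. Most list genes were thus called in neither direction at either dose, and DDIT3 counts under 2 roles below. The counts by role below stand against these same shares of all genes, and no role was tested as a set.

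Among the 17 regulators, 3 were called up at 10 µM and 4 down. ATF3, a stress-induced bZIP factor, rose from 3.36 ± 0.498 CPM in DMSO to 24.9 ± 2.43 at 5 µM and 108.4 ± 7.45 at 10 µM (SD, n = 3 each). EGR1, an immediate early zinc finger factor, rose by 2.09 ± 0.11 at 5 µM and 4.21 ± 0.12 at 10 µM on the log2 scale. DDIT3, the stress factor CHOP, rose by 0.74 ± 0.18 at 5 µM and 2.98 ± 0.19 at 10 µM, and its 10 µM libraries were spread from 60.2 to 102.4 CPM, with replicate 1 the highest. The call of DDIT3 at 5 µM was lost without any single DMSO or 5 µM library (adjusted p = 0.0861 to 0.135). ATF4, whose protein drives DDIT3, was not called at 10 µM against DMSO (log2 fold change 0.48, under the fold limit). From 5 µM to 10 µM ATF4 rose (0.64, adjusted p = 0.00855 in edgeR). Without 10 µM replicate 1 the latter change was 0.47, under the fold limit. BRCA1, a DNA repair gene, fell at 10 µM (-1.01 on the log2 scale), as did SMAD3 (-0.79), which carries TGF-beta signals, and FOXO3 (-0.65). Without 10 µM replicate 1 the change of FOXO3 was -0.45, under the fold limit, and that of BRCA1 was -0.74, still called. RELA and NFKB1, which encode NF-kB subunits, had log2 fold changes of -0.04 and -0.14 at 10 µM against DMSO and were not called. These are transcript levels, and the activity of NF-kB was not tested.

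Of the 5 cell cycle partners, CDKN1A rose and CDK1, CCNB1 and AURKA fell at 10 µM. CDKN1A, which encodes p21, rose from 157.7 ± 3.94 CPM in DMSO to 548.8 ± 11.9 at 5 µM and 775.2 ± 108.6 at 10 µM (SD, n = 3 each). Most of its change was in the lower step, and the upper step minus the lower step was -1.30 ± 0.16 log2 units (adjusted p = 0.00963, edgeR), which was not called without DMSO replicate 1 or 2 or any 5 µM library (adjusted p = 0.0517 to 0.101). CDK1, the kinase that GADD45A and GADD45B proteins inhibit, fell at both doses, with log2 fold changes of -0.73 ± 0.10 at 5 µM and -1.39 ± 0.10 at 10 µM. CCNB1, its cyclin, and AURKA had -0.74 and -0.81 at 10 µM. PCNA, with 0.43 and an adjusted p of 0.00618, was under the fold limit.

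In the stress kinase cascade below GADD45 proteins 1 of 13 genes was called at 10 µM. MAP2K3, an activator of p38, rose from 53.8 ± 1.83 CPM to 105.4 ± 14.9 CPM (SD, n = 3 each), or by 0.97 ± 0.10 on the log2 scale (adjusted p = 9.36e-05, edgeR). MAP3K4, the kinase that GADD45 proteins bind and activate, had -0.06 and MAP2K7, the kinase that GADD45B inhibits, -0.03, and neither was called. None of the 7 DNA repair and demethylation partners and none of the 4 other partners was called in edgeR at 5 µM or 10 µM, although TDG (0.36, adjusted p = 0.00794), ING1 (0.36, adjusted p = 0.0291) and RXRA (-0.34, adjusted p = 0.00402) passed the adjusted p alone at 10 µM. Both other genes named for growth arrest and DNA damage, DDIT3 (GADD153) and PPP1R15A (GADD34), were called up at 10 µM.

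**Figure D4:**
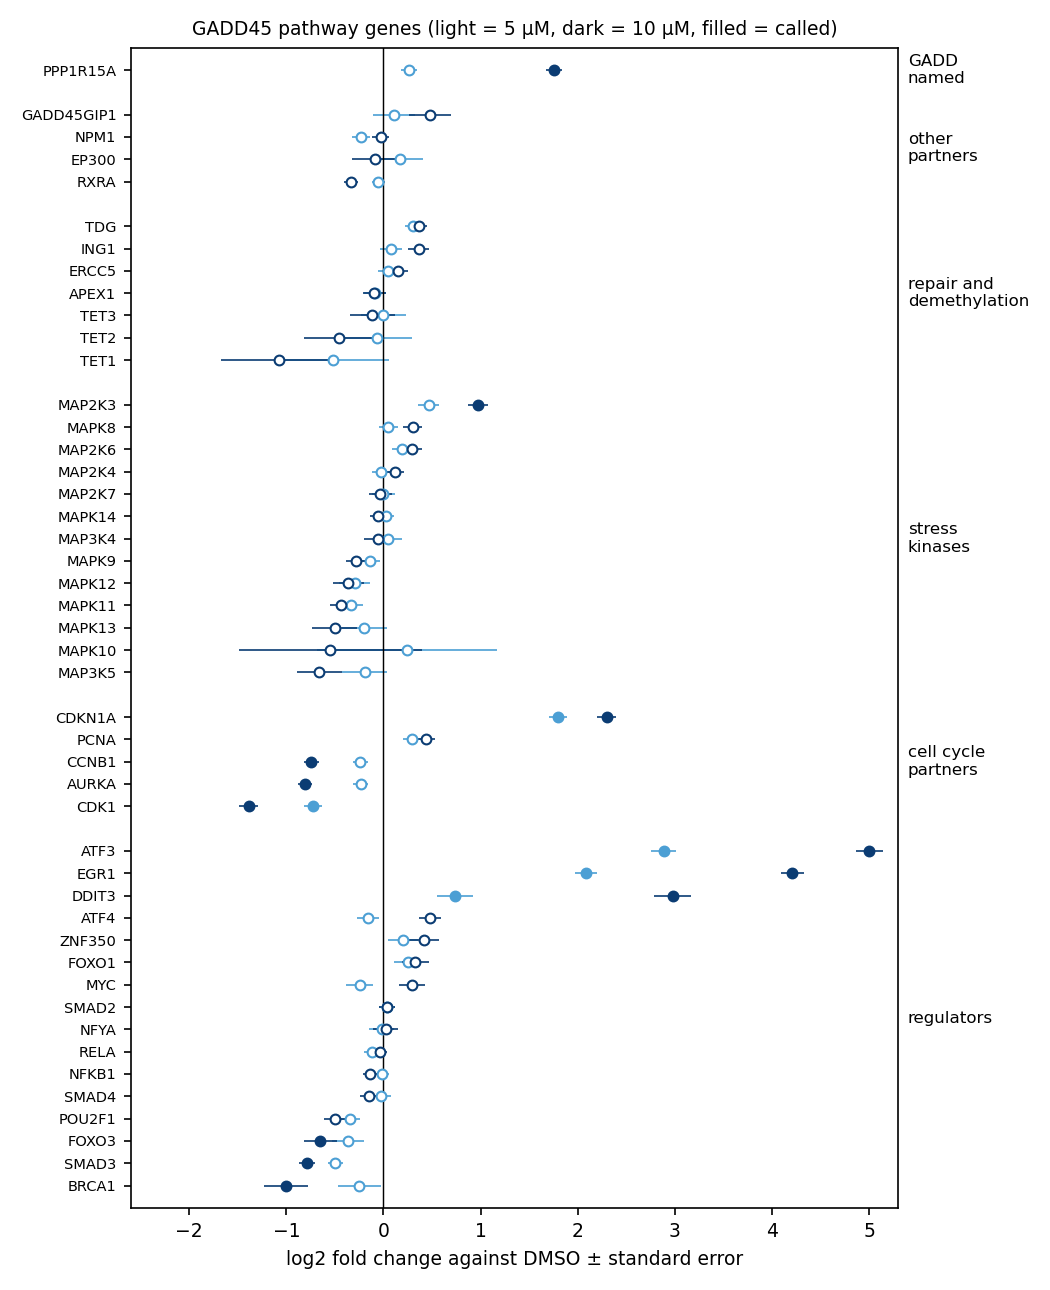
Log2 fold change against DMSO with its standard error for the genes of the GADD45 list, without 1 regulator, at 5 µM (light) and 10 µM (dark), by role and from edgeR (filled points were called). DDIT3 is drawn once, among the regulators. The regulators ATF3 (5.00 at 10 µM) and EGR1 (4.21) lie farthest to the right, and most stress kinases and repair partners lie near 0.

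Finally, the genes whose expression followed each member most closely were sought among tested genes that averaged 1 CPM or more over the 9 libraries. Likeness was the root mean square difference over the 9 libraries of log2 CPM after the DMSO mean of each gene was subtracted, and it is a description of these libraries that was not tested. The 5 genes nearest to GADD45A were CCDC64, UCA1, MDM2, KIAA1324 and LCP1, at 0.183 to 0.231 log2 units. MDM2, which encodes a ubiquitin ligase, was at 102.2 ± 3.21 CPM in DMSO, 338.5 ± 6.01 at 5 µM and 669.3 ± 63.9 at 10 µM (SD, n = 3 each). UCA1 is a long noncoding RNA, and its log2 fold changes of 1.36 and 2.75 were close to the 1.58 and 2.89 of GADD45A. MDM2 and UCA1 stayed among the nearest 5 with each of the 9 libraries left out in turn, whereas LCP1, an actin-bundling protein gene, did so in 5 of 9.

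The 5 genes nearest to GADD45B were PPP1R15A, CYR61, CTGF, FOS and ZNF790-AS1, at 0.112 to 0.214 log2 units. PPP1R15A, which encodes the phosphatase subunit that reverses the translation block of the stress response, was nearest at 0.112. Its expression was 59.4, 58.3 and 56.1 CPM in DMSO, 68.9, 71.3 and 68.8 CPM at 5 µM and 217.3, 177.5 and 192.6 CPM at 10 µM. As with GADD45B, the 5 µM libraries lay a little above DMSO and the 10 µM libraries far above both. PPP1R15A was not called at 5 µM (log2 fold change 0.27, adjusted p = 0.0747 in edgeR) and rose at 10 µM (1.76, adjusted p = 6.93e-07). Its upper step minus its lower step was 1.23 ± 0.15 log2 units (adjusted p = 0.00953), and this too was not called without DMSO replicate 1 or 2 or any 5 µM library (adjusted p = 0.0517 to 0.112). CYR61 and CTGF encode secreted matricellular proteins and are textbook targets of YAP and serum response factor, and FOS encodes an AP-1 subunit of the immediate early class. CYR61 averaged 78.2 CPM in DMSO, 94.6 at 5 µM and 220.5 at 10 µM, and the same values were 35.3, 51.3 and 130.3 CPM for CTGF and 3.70, 5.00 and 15.1 CPM for FOS. All 3 were called at 10 µM and not at 5 µM, where CTGF passed the adjusted p (0.00101) but not the fold limit. PPP1R15A, CYR61 and CTGF stayed among the nearest 5 with every library left out in turn, FOS in 5 of 9 and ZNF790-AS1 in 3 of 9.

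For GADD45G the nearest genes were PVRL4, HIST1H2BG, ID2, ZSCAN4 and EGR1, at 0.424 to 0.611 log2 units. These distances are wider than for the other members and rest on few counts of GADD45G, whose log2 CPM depends on the prior count of 2 that was added. PVRL4 and HIST1H2BG stayed among the nearest 5 with each library left out, ID2 and ZSCAN4 did so in 4 of 9 and EGR1 in 3 of 9. ZSCAN4 averaged 0.0991 CPM in DMSO, 0.731 at 5 µM and 3.23 at 10 µM, so it too reached 1 CPM only through its 10 µM libraries.

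**Figure D5:**
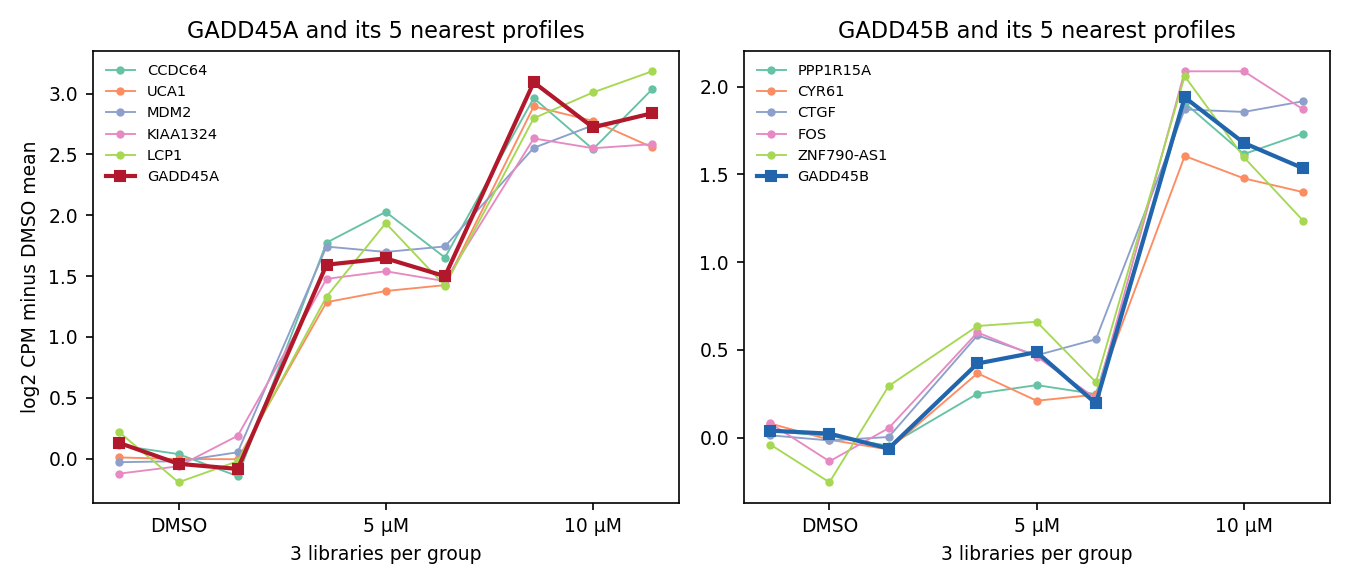
Log2 CPM minus the DMSO mean in each of the 9 libraries for GADD45A (left, thick line) and GADD45B (right, thick line) with their 5 nearest genes (thin lines); lines only join the points of a gene, and libraries within a group have no order. The genes on the left climb in both steps, while those on the right stay within 0.7 of DMSO at 5 µM and climb at 10 µM.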

How the data were processed

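Total RNA of A375 cells was purified as mRNA on oligo-dT beads and made into strand-specific libraries by the dUTP method, although the design text of the series names depletion of ribosomal RNA. Expected counts from RSEM, not scaled to library size, were deposited as a single table with a row per gene symbol and a column for each of the 9 libraries. The processing notes of the submitters list Bowtie2 2.1.0, RSEM 1.2.15 and hg38, without roles. The sources used here do not state the annotation, the filters or whether counting used strand.

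Expected counts were rounded. TMM factors, the filterByExpr filter (16417 of 26475 genes left) and edgeR 4.0.16 in R 4.3.3 (glmQLFit, glmQLFTest) were used in a single fit of the 3 groups with 6 residual degrees of freedom and Benjamini-Hochberg adjustment over all genes tested. Each standard error is the size of the log2 change over the root of its F statistic. Lengths are the union of annotated exons in GENCODE release 29, which for GADD45B spans the whole gene. Shares and the log2 ratio (0.5 added to each count) were tested by exact permutation with Python 3.11.15. Intervals of count ratios are exact binomial and cover counting error only. Promoters are from RefSeq (GRCh38.p14), which gave those of 2 members.

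The members and the gene list, written from general knowledge, were chosen with earlier results of these data known. Named genes are the members, the called genes of the list at 10 µM (at most 4 per role and direction) and the 5 nearest profiles of each member. Genes named beyond that rule were chosen after their values were seen. These are ATF4, RELA, NFKB1, PCNA, MAP3K4, MAP2K7, TDG, ING1 and RXRA. The values of 1 called regulator are not reported here. The replicate numbers were not used to pair the libraries in the main fit. Alternatives were other scaling factors, other filters, DESeq2 1.42.0, a replicate block, fits of 2 groups, ribosomal RNA genes left out, other lengths and offsets, no fold limit and each library left out.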

Additional observations from a re-analysis of the deposited data

How the results depend on the processing

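The 12 fitted values of the members (3 comparisons and the difference of steps for 3 genes) kept their direction in all 208 combinations of value and alternative, and 203 of these also kept their side of the threshold. The other 5 became called. These were GADD45G at 5 µM with DESeq2 (3.94 on the log2 scale) and without 10 µM replicate 1 (3.72), the step difference of GADD45B with DESeq2 (1.00) and without 10 µM replicate 1 (0.86), and that of GADD45A without the same library (-0.38). With each library left out, the value of GADD45G at 5 µM ranged from 3.09 to 6.40, the step difference from -0.38 to -0.19 for GADD45A and from 0.82 to 1.10 for GADD45B. GADD45G could not be fitted with at least 1 CPM in 3 libraries, since the filter removed it. In the fit of DMSO and 5 µM alone it was also removed by the filter on low counts, so its change at 5 µM was not testable there. The share of GADD45G at 10 µM minus DMSO ranged from 0.269 to 0.338 percentage points, and the exact test passed without 5 µM replicate 2 (p = 0.0107) or 3 (p = 0.0357). Without DMSO replicate 1, which holds its only counts in DMSO, the log2 fold change of GADD45G was 7.87 at 10 µM and is no bound.

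For the list of 47 genes, dropping the fold limit gave 3 called down at 5 µM, 12 up at 10 µM, and 8 up and 4 down from 5 µM to 10 µM. DESeq2 gave 2 down in that last comparison, as did leaving out 5 µM replicate 1 or 2 or 10 µM replicate 3 (range 1 to 2). Leaving out each library, for the single genes of the list and for the nearest genes an alternative chosen after seeing the data, kept 3 to 5 of the 5 nearest genes of GADD45A and of GADD45B and 2 to 5 of those of GADD45G.

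The correlation of the deviations of same-numbered libraries was between -0.049 and 0.032 in 9 pairs, so no deviation shared by number was seen. This cannot show whether same-numbered libraries came from the same culture or day. With the replicate block, the log2 fold changes at 10 µM were 2.89 for GADD45A, 1.72 for GADD45B and 5.35 for GADD45G, and no call of a member changed. Dividing by coding length or by no length kept the direction and the call of each share. The cause of the changes was not tested. Depth limits GADD45G alone among the members.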
